A study of Homo sapiens with 6 samples.

Results

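The sites described here are positions at which 2 END-seq libraries of HCT116 cells, made after 10 min of camptothecin (CPT), both held paired reverse and forward peaks. The pairing aims at the trace of a DNA double-strand break (DSB), but it also admits overlapping peaks in the opposite order. END-seq ligates an adapter to each free DNA end of agarose-embedded cells, and a break with both ends caught shows fragments of the reverse strand to the left and of the forward strand to the right. In each library every reverse peak was joined to the nearest forward peak, if the gap between them was under 150 bp or they shared bases, the joined span was called a site, and overlapping sites were merged. CPT10 replicates 1 and 2 gave 102733 and 54794 sites. Sites that overlapped a site of the other replicate were merged into 4011 replicated sites, and the 3831 of them on chromosomes 1 to 22 are the subject, out of 262171 sites counted in the 4 treated libraries of the series.

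HCT116 is a human epithelial colorectal carcinoma line, and no genetic change or other agent is named for these samples. The series held 6 samples, which were 2 biological replicates each of untreated cells, of cells given 10 µM CPT for 10 min and of cells given it for 20 min. The sample names read "CPT 10 µM" and "CPT 20 µM", but the treatment protocol and the design state a single dose and 2 times, and that reading is used. All cells were asynchronous and of a single line, and murine pre-B cells served as spike-in.

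Topoisomerase I (Top1) relaxes DNA by cutting a single strand, to which it stays bound for a moment as the Top1 cleavage complex (Top1cc). CPT slips into that complex and keeps it from closing. RNA polymerase II (RNAPII) and replication forks that run into a trapped complex are known routes to breaks, and Top1 works hardest where transcription twists DNA most.

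The peaks were called against an untreated library, but the values do not compare treated with untreated cells position by position. The fold value of every peak in a list was its summit height over a single expected height, with 1 added to each, and that height was 1.44 (forward) and 1.41 (reverse) fragments in replicate 1 and 0.734 and 0.727 fragments in replicate 2. From it the summit was read back as a whole number of fragments, with lowest admitted summits (forward and reverse) of 6 and 5 in replicate 1 and 4 and 4 in replicate 2. Replicate 1 was thus the deeper library. Peaks of untreated cells were not analysed here, so breaks present before CPT cannot be told apart from breaks that follow it.

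The first question was where in the genome the replicated sites lay. A site midpoint fell in an annotated gene for 2887 of the 3831 sites, or 75.4% (95% Wilson interval 74.0 to 76.7%), whereas genes cover 63.0% of the bases of these chromosomes. Protein-coding genes held 2391 sites (62.4%) against 46.5% of bases. Among sites seen in a single library only, 68.2% in replicate 1 (n = 97312) and 65.8% in replicate 2 (n = 49955) lay in genes. These intervals cover counting error only, since PCR duplicates were kept and neighbouring sites are not independent.

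The 5′ ends of genes stood out far more than gene bodies as a whole. Of the replicated sites, 1164 or 30.4% (28.9 to 31.9%) had a protein-coding 5′ end less than 5 kb away, a space that takes up 6.35% of bases. Unreplicated sites did so in 10.8% and 8.61% of cases in replicates 1 and 2. Nearly all of the difference lay on the transcribed side, because 995 sites (26.0%, 24.6 to 27.4%) were 0 to 5 kb downstream of the nearest 5′ end and 169 (4.41%, 3.81 to 5.11%) were 0 to 5 kb upstream. The downstream space is 3.38% of bases and held 6.97% and 5.70% of unreplicated sites. The upstream space is 2.97% of bases and held 3.86% and 2.91% of them.

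Site midpoints were most frequent not in the first kb after the 5′ end but in the second. Only midpoints were placed, and a wide site can span the start itself, as at HNRNPA1 from −227 to 1446 bp. Per kb of distance, 62 sites lay in the last kb before a 5′ end, 205 in the first kb after it, 331 in the second, 224 in the third, 132 in the fourth and 103 in the fifth. The second kb thus held 8.64% of all replicated sites, against 1.55% and 1.58% of the unreplicated sites of replicates 1 and 2. Between 0 and 10 kb downstream the median distance of the 1255 replicated sites was 2349 bp, with quartiles at 1266 and 4444 bp. The corresponding medians of unreplicated sites were 4257 and 3765 bp. An overlap between libraries is likelier where each library holds more or wider sites. The rule itself can therefore add to such contrasts of position between replicated and unreplicated sites, and its part was not tested.

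**Figure D1:**
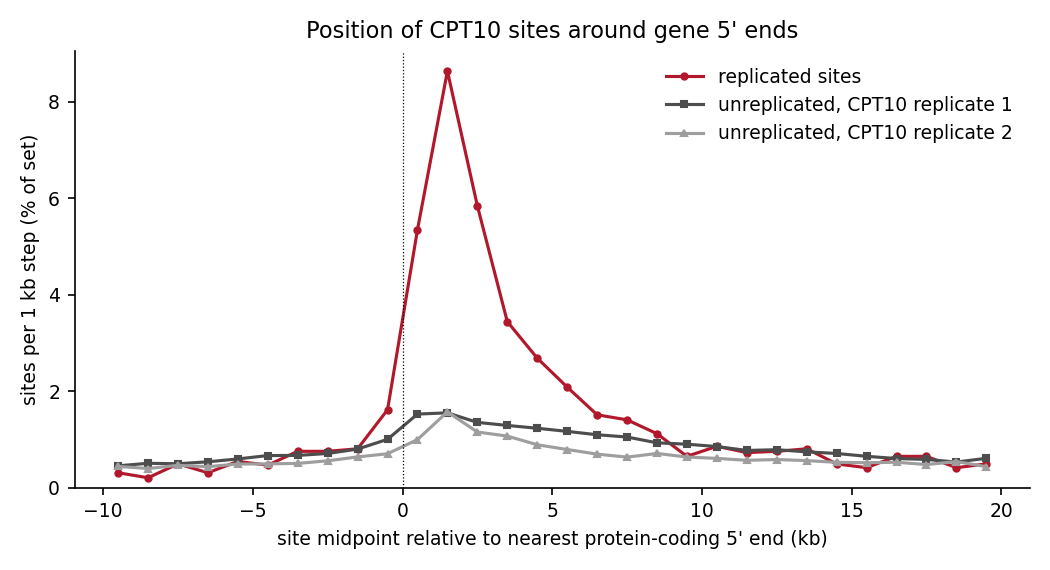
Percent of sites per 1 kb step (y axis) by distance of the site midpoint from the nearest protein-coding 5′ end in kb, positive in the direction of transcription (x axis), for the 3831 replicated CPT10 sites and the unreplicated sites of each library. Replicated sites peak between 1 and 2 kb downstream at 8.64%, where unreplicated sites reach 1.55% and 1.58%.

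Along the 10736 protein-coding genes of at least 20 kb, the first 5 kb held 9.50 replicated sites per Mb. The next 5 kb held 2.89 per Mb, the interior 1.04, the last 5 kb 2.22 and the 5 kb past the 3′ end 3.06 per Mb. Unreplicated sites of replicate 1 had 72.9 per Mb in the first 5 kb and 37.7 in the interior, and those of replicate 2 had 34.1 and 18.9. The first 5 kb thus held more replicated sites per Mb than the 5 kb before the 5′ end, which held 3.33, and than each window further down. By exon structure, 1853 midpoints (48.4%) lay in introns of protein-coding genes, 377 (9.84%) in their noncoding exons and 161 (4.20%) in coding exons. Coding and noncoding exons of these genes make up 1.28% and 2.62% of bases and introns 42.6%, so exons held a larger share of sites than of bases.

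Site strength differed between these places. The median summits of the sites 0 to 5 kb downstream of a 5′ end were 17 and 17 fragments (reverse and forward) in replicate 1 and 10 and 10 in replicate 2. Sites elsewhere in genes (n = 1751) had medians of 12 and 13 in replicate 1 and 8 and 7 in replicate 2. Sites between genes (n = 698) had 11.5 and 12, and 7 and 7. The median width was 893 bp near the downstream 5′ ends, 670 bp elsewhere in genes and 645 bp between genes. Unreplicated sites had 307 and 290 bp, but wide sites overlap more readily and replicated ones were merged over both libraries, so the rule itself sets a difference of this direction. Replicates ranked the sites only moderately alike, with a Spearman correlation of 0.417 between their lower summits over the 3831 sites, which are not independent of each other.

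The order of overlapping peaks is given as a description, because the site definition bears on it. A break places the reverse peak to the left, and the rule accepts overlapping peaks in either order. A pair with the reverse peak first spans both peaks, however, while the opposite order leaves only the bases they share, so reverse-first sites are wider and more likely to meet a site of the other library. Of the replicated sites whose best peaks overlapped with staggered ends, the reverse peak came first in 58.4% (56.2 to 60.5%, 1186 of 2031) in replicate 1 and 64.0% (61.9 to 66.1%, 1292 of 2018) in replicate 2, a mean of 61.2 ± 3.98% (SD, n = 2). The share was 60.8% and 67.4% for sites 0 to 5 kb downstream of a 5′ end, and 60.9% and 66.6% between genes. For the 235 sites whose best paired peaks had a −log10 q of at least 10 in both libraries, called strong sites below, it was 65.6% and 74.2%.

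Near 5′ ends the peak of the strand that a break places on the promoter side tended to be the taller one. That is the reverse peak for plus-strand genes and the forward peak for minus-strand genes, whatever their actual order. Among the sites used, 212 in replicate 1 and 175 in replicate 2 were staggered with the forward peak first. In 289 and 222 the peaks were nested, so strand does not give position there. The sites were the 993 that lay 0 to 5 kb downstream of a 5′ end and away from large assembly gaps. The peak of the promoter-side strand was taller in 556 and lower in 398 in replicate 1, or 58.3% (55.1 to 61.4%) of the unequal ones. In replicate 2 it was taller in 508 and lower in 408, or 55.5% (52.2 to 58.6%). Genes on the plus strand gave 55.1% and 58.1%, and genes on the minus strand 61.4% and 52.8%. On either gene strand that peak was thus the taller one more often. Between genes the reverse peak was the taller in 44.1% and 49.8% of unequal sites. The interval of minus-strand genes in replicate 2 (48.3 to 57.3%) included an even split.

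Which genes were hit was asked next. Of 19229 protein-coding genes, 1176 (6.12%) had a replicated site within 5 kb of the 5′ end, and 109 (0.567%) had a strong one. In single libraries the background was much higher, with 45.4% of genes holding any site of replicate 1 and 24.8% any site of replicate 2 in the same window. A replicated site lay in the body of 1779 genes (9.25%). Genes called at the 5′ end had a median length of 23.2 kb, near the 27.6 kb of all protein-coding genes, while genes with a site in the body had a median of 52.2 kb. Of long noncoding RNA genes, 583 of 18229 (3.2%) had a site within 5 kb of the 5′ end.

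Ribosomal protein genes were the list hit most completely. Of 75 genes for cytoplasmic ribosomal proteins on these chromosomes, 61 were called (81.3%, beside 6.12% of all genes), and 59 of these had their best site 0 to 5 kb downstream of the 5′ end, at a median of 2155 bp. The single libraries held sites at 72 and 69 of them. The best site of RPL7, a protein of the large subunit, had summits of 52 (reverse) and 27 (forward) in replicate 1 and 43 and 19 in replicate 2. RPLP0, of the ribosomal stalk, had 42 and 66, and 34 and 14. RPL37, also of the large subunit, had 35 and 54, and 28 and 14. RPS19, RPL11 and RPS18 were among the 14 without a call. Of 38 translation factors 12 were called (31.6%). They included EIF1, which helps choose the start codon, EEF1A1, which brings aminoacyl-tRNA to the ribosome (50 and 49, and 36 and 20), and the poly(A) binding protein PABPC1 (35 and 48, and 15 and 26). Of the 13 eIF3 subunits only EIF3A and EIF3D were called.

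Genes that respond within minutes to growth factors were hit nearly as often. Of 36 immediate-early genes 24 were called (66.7%, beside 6.12% of all protein-coding genes). The best site of each lay downstream of the 5′ end, at a median of 1850 bp. ZFP36L1, which promotes decay of short-lived mRNAs, had 3 sites, the best with summits of 42 and 44 in replicate 1 and 18 and 53 in replicate 2. The transcription factors EGR1 (26 and 44, and 23 and 18) and FOS (25 and 24, and 34 and 36) followed, with FOSL1, JUN, JUNB, FOSB and ATF3 also called. BTG2, KLF4, KLF6 and JUND were not. FOS had the higher summits in the shallower library on both strands, and the other named genes of this group did not.

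Splicing factors, chaperones and cytoskeletal genes formed a further block. Of 36 hnRNP and SR protein genes 22 were called (61.1%, beside 6.12% of all protein-coding genes). HNRNPA1, a splicing repressor, carried 4 sites within 5 kb of its 5′ end, and SRSF2, SRSF3 and SRSF1 each had at least 1. The best site of SRSF2 lay 4109 bp from its 5′ end, with 56 and 52 fragments in replicate 1 and 25 and 28 in replicate 2, and is shared with METTL23, a methyltransferase gene that runs towards SRSF2 on the other strand. Of 31 heat shock and chaperone genes 14 were called (45.2%), among them HSPA8 (31 and 33, and 48 and 18), HSPD1 (63 and 43, and 14 and 25) and HSP90AB1 (68 and 24, and 28 and 16). HSPD1 and HSPE1 start close together in opposite directions and were called through a single site. The stress-inducible HSPA1A and HSPA1B were not called. Of 25 actin, tubulin and keratin genes 13 were called (52.0%), including ACTG1, ACTB, KRT8 and KRT18.

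Genes tied to DNA itself were hit less evenly. Of 61 replication-dependent histone genes 17 were called (27.9%), through 11 distinct sites, because these short genes stand in pairs and clusters. Strong sites served 10 of the 17. The best ranked was the site shared by H2AC11 and H2BC11, with 45 and 39 fragments in replicate 1 and 20 and 14 in replicate 2. The site shared by H2AC15 and H2BC15 had summits of 24 and 130 in replicate 1 and 21 and 49 in replicate 2. Whether reads of such near-identical genes were placed at the right copy, or removed by the limit on mapping quality, was not tested. The identity of the histone genes hit, and of those without a call, is therefore uncertain. Of 33 replication and DSB repair genes 10 were called (30.3%), with the helicase subunit MCM7 (39 and 29, and 14 and 24) first and PCNA, the sliding clamp, holding 3 sites. Of 24 genes for topoisomerases and repair of trapped Top1, ATM and MUS81 were called (8.33%, near the 6.12% of all genes), both through sites upstream of their 5′ ends, and TOP1, TDP1 and PARP1 were not. The MUS81 site is the one that also called CFL1, the actin-severing cofilin gene, 1902 bp downstream of its 5′ end. Of 29 genes for transcription elongation and pausing 6 were called (20.7%), TCEA1 among them, which encodes transcription factor IIS (13 and 22, and 9 and 10).

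Among 29 targets of p53, of which HCT116 cells carry a functional copy, 6 were called (20.7%). TNFRSF10B, a death receptor, had the best ranked site of the group (65 and 43, and 29 and 48), followed by GADD45A, a stress response gene (32 and 20, and 10 and 24). MDM2, which tags p53 for destruction, had 20 and 21, and 11 and 9. CDKN1A, BAX and FAS had no call. DNA-RNA hybrid resolution genes reached 3 of 23 (13%, beside 6.12% of all genes), which were SRSF1, DDX5 and THOC6. DDX5 and THOC6 were called through sites at −2870 and −3368 bp, upstream of their 5′ ends. The wider DDX5 site described below has its midpoint outside the 5 kb window. SRSF1 is also counted among the splicing factors. Colorectal epithelial genes reached 3 of 20 (15%), which were KRT8, KRT18 and KRT19. These keratins are also counted in the actin, tubulin and keratin list. The epithelial genes CDH1, EPCAM, VIL1, CDX2, KRT20 and CEACAM5 were among those without a call.

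Lists of genes used in other tissues stayed under the 6.12% of all protein-coding genes. Neuronal genes were called in 1 of 21 cases (4.76%), liver and muscle genes in 0 of 26, and olfactory receptor genes in 3 of 398 (0.754%). The 3 receptors, OR4Q3, OR4M1 and OR4N2, lie close together on chromosome 14, and none of their sites had a summit above 18. Common fragile site genes, which are very long and break under replication stress, had 0 calls at the 5′ end among 23. Sites in their bodies were found in 10 of the 23, beside 9.25% of all genes and 15.2% of the genes in the top quartile of length. Neither share is matched to the length of the fragile site genes, so no excess can be read from these values.

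**Figure D2:**
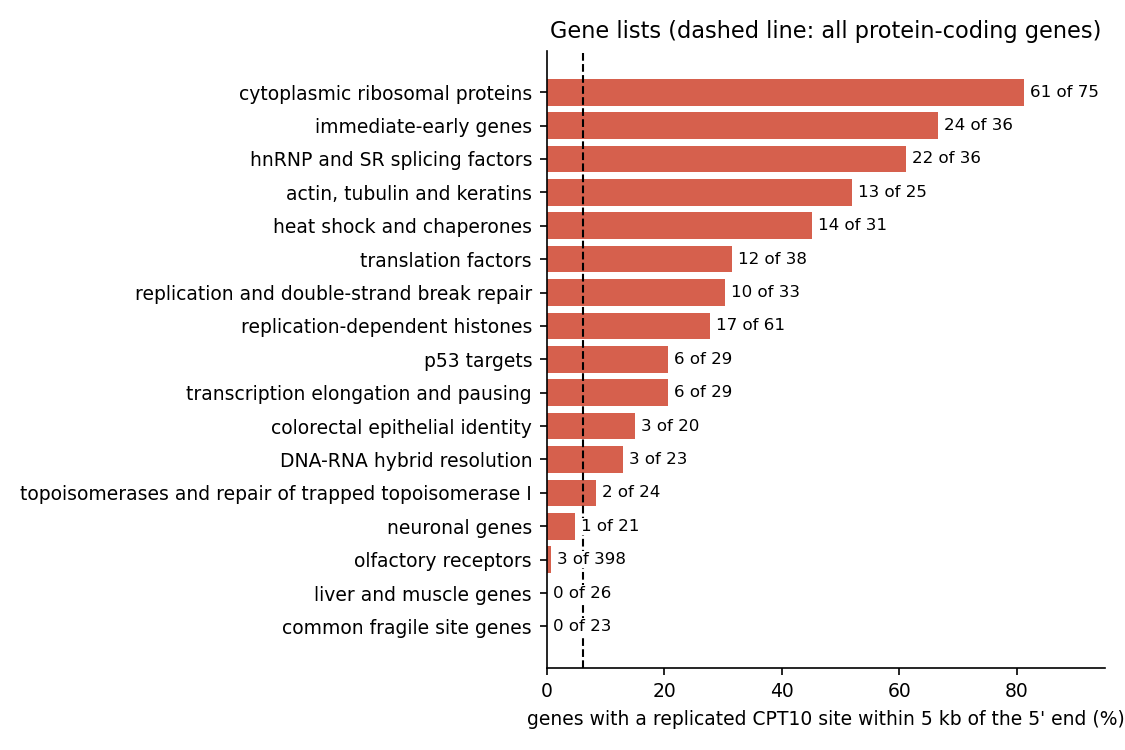
Percent of genes with a replicated CPT10 site within 5 kb of the 5′ end (x axis) in each gene list (y axis), with the number called of those on chromosomes 1 to 22. The dashed line is the 6.12% of all protein-coding genes, and 61 of 75 ribosomal protein genes lie at the top while liver and muscle genes and common fragile site genes had 0 calls.

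The individual sites of highest rank show what these paired peaks looked like. Each library ranked its sites by the less significant peak of the pair, and a replicated site was placed by the worse of its 2 ranks. ACTG1, which encodes cytoplasmic gamma-actin, carried a site at chr17:79473342-79479605 (hg19) that covered most of its transcript and ran past the 3′ end, with summits of 84 and 100 in replicate 1 and 34 and 27 in replicate 2. ACTB, the beta-actin gene, had 44 and 52, and 35 and 24 at chr7:5566065-5569556. H3-3B, a histone H3.3 gene used outside S phase, had 44 and 68, and 31 and 40 at chr17:73770315-73775706. All summits of these genes were several times the lowest admitted, in both libraries and on both strands.

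RCC1, a chromatin-bound exchange factor, came after SENP5 and VMP1 at chr1:28832062-28838472 with 72 and 56, and 32 and 30. This site also covers SNHG3, a snoRNA host gene whose transcript begins in the same place, and SNORA73B. EIF1 had 43 and 54, and 37 and 23 at chr17:39845642-39848936. DDX5, an RNA helicase gene, had 36 and 50, and 24 and 31 at chr17:62492579-62501443, a site 8865 bp wide with its midpoint 5396 bp from the 5′ end. It spans most of the 9.95 kb gene.

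**Figure D3:**
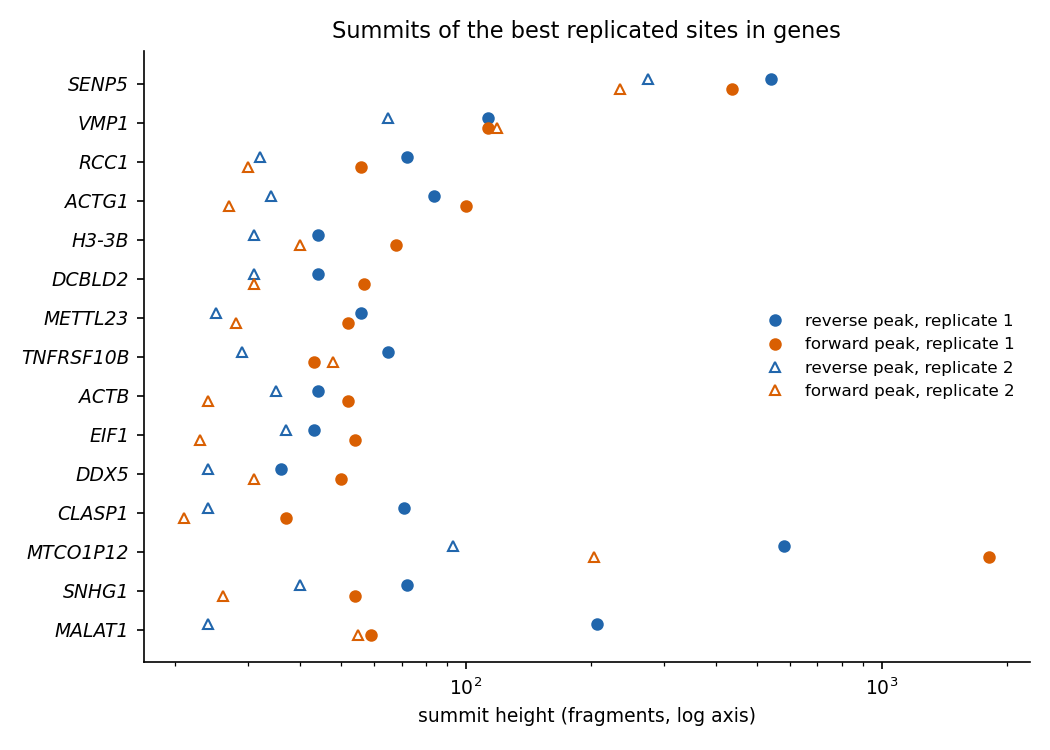
Summit heights in fragments (x axis, log scale) of the reverse and forward peaks in CPT10 replicates 1 (filled circles) and 2 (open triangles) for the 12 best sites in or beside protein-coding genes and the 3 best in noncoding genes (y axis). Replicate 1 lies to the right at most sites, and SENP5 and MTCO1P12 stand far above the rest.

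VMP1, an autophagy gene, came next after SENP5, but its site at chr17:57914231-57922015 lay 133108 bp from its 5′ end and over its 3′ end. This stretch holds MIR21, which has a promoter of its own inside VMP1 and makes an abundant miRNA of tumour cells. The summits were 113 and 113 in replicate 1 and 65 and 119 in replicate 2. The mature product is shown because the gene name alone hides it (RefSeq, seed at bases 2 to 8 in capitals).
hsa-miR-21-5p: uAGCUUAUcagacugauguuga

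SENP5, a SUMO protease gene, held the best ranked site in a protein-coding gene away from large gaps, with 542 and 435 fragments in replicate 1 and 274 and 234 in replicate 2. It was narrow and lay in an intron. Whether reads from other parts of the genome aligned there was not tested.

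CLASP1, a microtubule-binding protein gene, was the last of the 12 best, at chr2:122288208-122288968, 118450 bp into the gene, with 71 and 37, and 24 and 21. The site covers RNU4ATAC, the gene of a small nuclear RNA of the minor spliceosome, which is transcribed from the opposite strand of a CLASP1 intron as a unit of its own. The stretch is shown because it lies where that gene ends inside CLASP1. The capitals mark the bases covered by the reverse and forward peaks of both libraries, with 30 bases on either side (hg19 plus strand, chr2:122288536-122288730), and they began within the end of that gene and ran past it.
CLASP1 intron, RNU4ATAC 3′ end: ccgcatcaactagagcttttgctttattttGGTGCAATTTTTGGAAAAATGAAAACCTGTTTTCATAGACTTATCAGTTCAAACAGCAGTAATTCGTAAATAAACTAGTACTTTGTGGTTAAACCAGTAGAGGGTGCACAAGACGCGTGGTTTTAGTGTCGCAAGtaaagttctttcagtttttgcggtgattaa

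For comparison, 4 sites of listed genes are given on the coding strand, with the same meaning of capitals and at most 140 bases of them. Each lay in an intron 0 to 5 kb downstream of the 5′ end, and its shared stretch could be shown free of exons. The 4 are examples and not the best ranked of their kind, since a better ranked intron site of a listed gene is not shown. They were ZFP36L1 (chr14:69259139-69259338), EZR (chr6:159237683-159237771), SRSF3 (chr6:36562839-36563038) and HNRNPA3 (chr2:178079665-178079825).
ZFP36L1: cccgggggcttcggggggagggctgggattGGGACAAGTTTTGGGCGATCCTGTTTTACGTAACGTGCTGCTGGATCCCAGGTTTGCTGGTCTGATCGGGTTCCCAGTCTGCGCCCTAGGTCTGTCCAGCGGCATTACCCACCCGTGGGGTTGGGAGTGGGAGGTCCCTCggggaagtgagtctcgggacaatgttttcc
EZR: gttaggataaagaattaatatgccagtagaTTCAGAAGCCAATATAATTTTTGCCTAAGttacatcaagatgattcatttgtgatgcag
SRSF3: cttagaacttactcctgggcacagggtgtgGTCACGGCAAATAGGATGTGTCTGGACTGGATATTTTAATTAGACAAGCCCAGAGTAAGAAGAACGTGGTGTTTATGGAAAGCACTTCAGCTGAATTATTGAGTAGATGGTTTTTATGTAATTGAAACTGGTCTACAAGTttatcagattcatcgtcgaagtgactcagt
HNRNPA3: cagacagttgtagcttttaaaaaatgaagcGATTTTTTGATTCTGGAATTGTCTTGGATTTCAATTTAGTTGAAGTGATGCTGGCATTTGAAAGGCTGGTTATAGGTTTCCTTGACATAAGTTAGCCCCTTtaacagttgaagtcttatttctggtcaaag
In the capitals G outnumbered C in 3 of the 4, with 36 G and 17 C in SRSF3, 24 and 13 in HNRNPA3 and 47 and 37 in ZFP36L1, against 4 and 5 in the short EZR stretch. The same tilt was present across the called genes. In the 5 kb downstream of the 5′ end, read on the coding strand, G exceeded C in 80.7% of the 1176 called genes and in 71.3% of the 18053 others. The median skew, (G − C)/(G + C), was 0.0447 and 0.0309. The same windows had a median GC content of 45.7% in called genes and 47.4% in the others, so the windows of called genes were slightly lower in GC.

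Small RNA genes were crossed by the replicated sites more often than by unreplicated ones, a count made after the values were seen. Of 1392 snoRNA genes 66 (4.74%) were overlapped, by 43 sites, which is 1.12% of replicated sites and compares with 0.0308% and 0.0360% of unreplicated ones, whose smaller width alone makes an overlap less likely. These 43 sites were wide, with a median of 1629 bp, and 20 of them lay in or beside ribosomal protein genes, whose introns carry many snoRNAs. Of 24 snoRNA host genes, most of them noncoding, 15 were called (62.5%). In the same window the shares were 3.2% of all long noncoding RNA genes and 6.12% of all protein-coding genes. SNHG9 was called through the site of RPS2, which lies upstream of the SNHG9 5′ end. SNHG1 had 72 and 54, and 40 and 26, and GAS5 had 36 and 48, and 21 and 20. Of 2841 miRNA genes 21 (0.739%) were overlapped, MIR21 first, and of 1812 small nuclear RNA genes 6 (0.331%), which were RNU4ATAC, RNU2-2P, RNU4-1, RNU4-2, RNU5E-6P and RNU5F-1. The last 5 are members of multigene families with near-identical copies. Sites over miRNA genes were 0.496% of replicated sites, and 0.0586% and 0.0581% of unreplicated ones. For small nuclear RNA genes the shares were 0.131%, and 0.0206% and 0.0360%. The replicated sites of these 2 groups had median widths of 1300 and 1070 bp, so the limit of width holds for them too.

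Long noncoding genes were among the strongest single sites. MALAT1, an abundant nuclear RNA, had a site over its body at chr11:65265771-65271432 with 206 and 59, and 24 and 55. The reverse summit of replicate 1 was far above that of replicate 2, while the forward summits were alike. The highest noncoding site, MTCO1P12 on chromosome 1 (583 and 1814, and 93 and 203), is a nuclear copy of mitochondrial DNA. Whether reads of the mitochondrial genome aligned there was not tested. MIR31HG, host of a miRNA, held 14 sites over 180 kb and LINC-PINT 15 over 319 kb, both named after their values were seen.

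Some genes carried several sites. Within 5 kb of the 5′ end, 212 genes had 2 or more sites, 35 had 3 or more, and the most was 4. HNRNPA1, ERRFI1, C18orf32, NBPF1, VCL and ENSG00000289653 had 4 each, and CBX5 and ZFP36L1 were next with 3. ERRFI1, a feedback inhibitor of the EGF receptor, had 30 and 58, and 40 and 30 at its best site and 8 sites over its 21.9 kb. VCL, the focal adhesion protein vinculin, had 18 and 28, and 16 and 14. CBX5 starts opposite HNRNPA1 and was called through the best site of that gene, and C18orf32 lies beside RPL17.

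In gene bodies the most sites were in VTI1A (17, over 372 kb), DCBLD2 (16, over 106 kb), PCDH7 and PDE4DIP (14 each), and EZR and NBPF1 (11 each). DCBLD2, a membrane receptor gene, thus had 15.1 sites per 100 kb, VTI1A 4.57 and PCDH7 3.28. The window drawn around DCBLD2 held 85 to 94 peaks per list, and how often peaks so dense pair or overlap by coincidence was not tested. The best DCBLD2 site lay 2482 bp from the 5′ end with 44 and 57, and 31 and 31. The tallest peaks lay in another site, whose forward summits were 369 in replicate 1 and 170 in replicate 2, while no reverse peak around the gene was above 44 in replicate 1 or 35 in replicate 2. EZR, which links actin to the membrane, had 32 and 41, and 37 and 16 at its best site, 2377 bp from the 5′ end. PDE4DIP and NBPF1 belong to duplicated families on chromosome 1, and whether reads of other copies aligned to them was not tested.

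**Figure D4:**
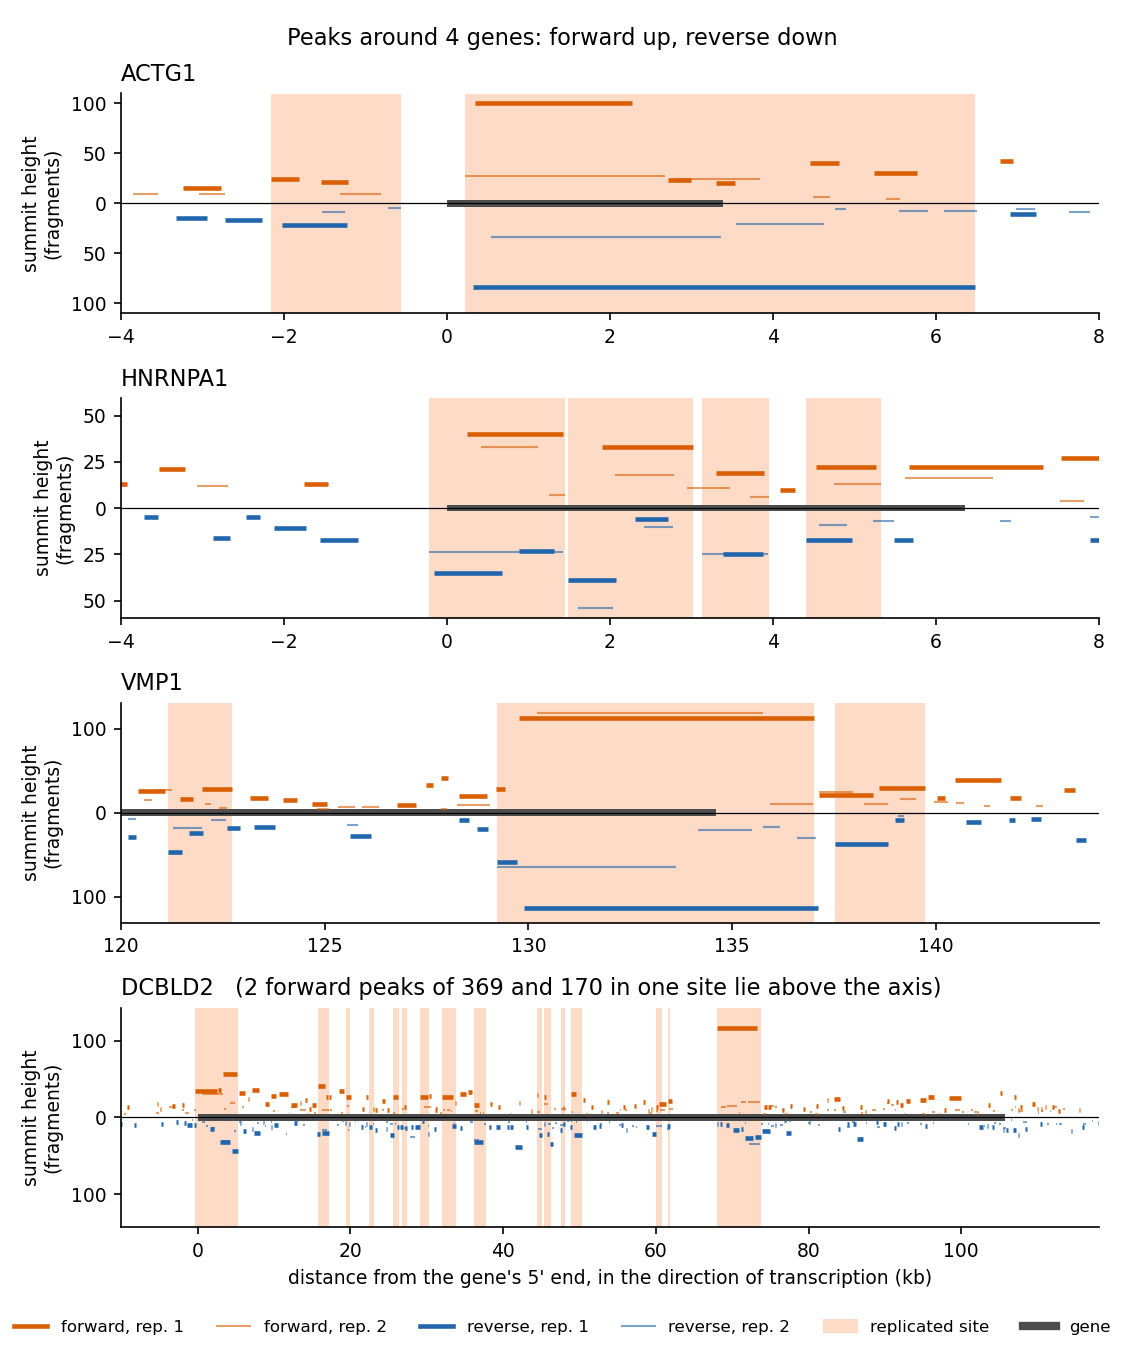
Summit height in fragments (y axis, forward peaks up, reverse peaks down) of every peak against its extent in kb from the 5′ end, in the direction of transcription (x axis), for ACTG1, HNRNPA1, the end of VMP1 and DCBLD2. Thick lines are CPT10 replicate 1, thin lines replicate 2, shaded spans the replicated sites and the dark bar the gene, and 2 DCBLD2 peaks above the axis are given in its title. HNRNPA1 shows 4 neighbouring sites, DCBLD2 16, and the VMP1 site runs over the 3′ end.

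Chromosomes differed in how densely they were hit. The mean was 1.43 sites per Mb, with 4.97 on chromosome 17 (387 sites), 3.58 on chromosome 8 (511), 2.37 on chromosome 19 (132), 2.22 on chromosome 10 (292), and 0.586 on chromosome 13 (56) as the lowest. Over the 22 chromosomes, which share both libraries, sites per Mb and protein-coding genes per Mb had a Spearman correlation of 0.540 and a Pearson correlation of 0.434, given as a description. The percentage of genes called was 11.4% on chromosome 17, 11.3% on chromosome 8 and 9.70% on chromosome 10, and between 1.31% and 7.12% on the others.

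All peaks were more numerous in parts of the same chromosomes. In 71 of 2694 bins of 1 Mb, all 4 lists held at least 1.5 times their median number of peaks per base. Of these bins 68 were on chromosomes 8, 10 and 17, with long runs at 107 to 117 Mb of chromosome 8, 101 to 106 Mb of chromosome 10 and 55 to 63 Mb of chromosome 17. HCT116 is known to carry extra copies of parts of 8q, 10q and 17q. These bins hold 2.63% of bases and 603 of the replicated sites (15.7%), or 8.53 per Mb against 1.23 per Mb elsewhere. Their peak numbers were 1.73 to 1.84 times those elsewhere. Copy number was not measured, and its part in these counts was not tested. Outside the bins chromosome 17 still had 3.36 sites per Mb and chromosome 8 had 2.60. In the bins 19.2% of sites were within 5 kb of a 5′ end and outside them 32.5%, and 22.9% of the 493 genes starting there were called against 5.67% of the others. The sites of DCBLD2, VMP1, H3-3B, DDX5, RPL7, PABPC1 and VTI1A lie in such bins, while ACTG1, RCC1, EIF1, ACTB and HNRNPA1 do not.

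**Figure D5:**
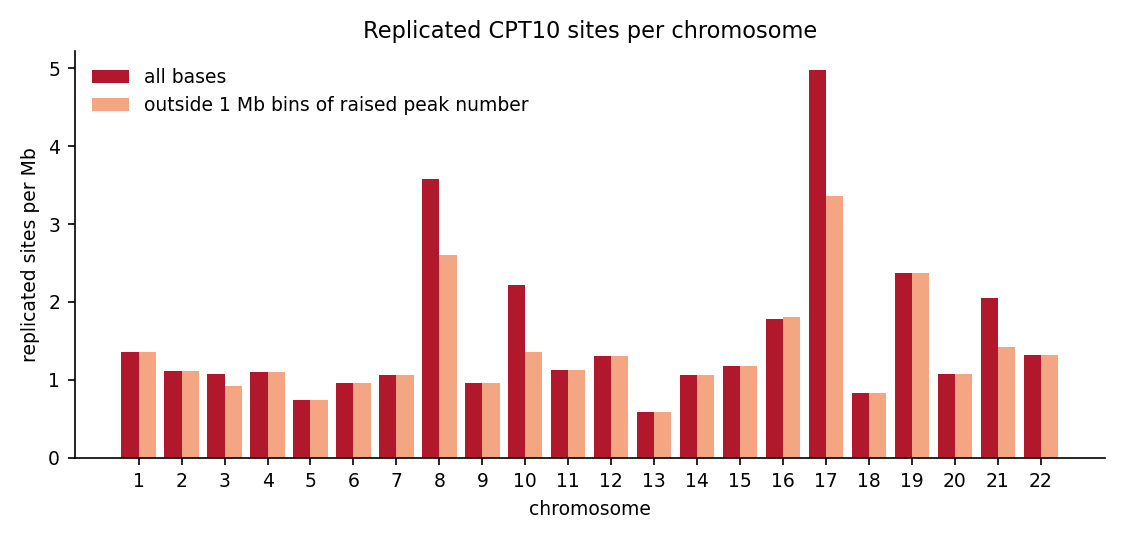
Replicated CPT10 sites per Mb of known sequence (y axis) on chromosomes 1 to 22 (x axis), over all bases and outside the 71 bins of raised peak number. Chromosome 17 drops from 4.97 to 3.36 per Mb and chromosome 8 from 3.58 to 2.60 when these bins are left out.

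The tallest sites on chromosomes 1 to 22 were not in genes. Within 1 Mb of assembly gaps of at least 1 Mb, most of which are centromeres, lay 220 sites (5.74%) with median summits of 24 and 26 in replicate 1 and 14 and 15 in replicate 2. The 3 best sites on these chromosomes were of this kind. At chr1:121482637-121485456 the summits were 11052 and 15157, and 4708 and 4574, at chr7:61968541-61970643 they were 7650 and 9520, and 3655 and 3956, and at chr6:58776099-58779539 they were 2497 and 1970, and 1076 and 787. The first 2 matched themselves best when shifted by 171 bases, with 49.5% and 52.2% identity, and 171 bases was also the most frequent shift among the 26 gap sites with at least 60% identity (18 sites). Such a period is that of alpha satellite, the repeat of human centromeres. Whether copies missing from the assembly add their reads there was not tested. Strong sites made up 36.8% of this group compared with 8.36% of the sites 0 to 5 kb downstream of 5′ ends. Chromosome 21 had 53 of the 220, which is most of its 72 sites.

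The pairing limit of 150 bp is a choice. In replicate 1, 1534 pairs lay in the last 10 bp inside the limit and 1685 in the first 10 bp outside it. Replicate 2 had 989 and 936. How many of the 3831 sites arose because unrelated peaks of the 2 libraries happened to overlap was not tested.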

How the data were processed

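END-seq peak lists of 2 libraries of HCT116 cells treated with CPT for 10 min were analysed. According to the study's methods, paired reads were trimmed with Trim Galore 0.6.5, aligned to hg19 with Bowtie2 2.5.0, kept at a MAPQ of at least 30 with duplicates using SAMtools 1.16.1, split by orientation, and peaks called with MACS2 2.2.7.1 per replicate and strand, with the untreated library as input, no local background and q below 0.05. The deposited values of each peak are a fold ratio over the expected height, its −log10 p-value, its −log10 q-value, a score that is the whole part of 10 times −log10 q, and an offset of the summit in bp. Read totals and untreated peak lists were not used here, and no position-specific control enters these values.

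Peaks were paired with bedtools 2.31.1 and processed with Python 3.11.15, pandas 2.3.3 and scipy 1.17.1. Site pairing, merging and annotation were tested on planted peaks. Gene models were GENCODE 44 on GRCh37, with the 5′ end of the canonical transcript, or of the gene record for 251 protein-coding genes without one. Sites were assigned by midpoint, protein-coding genes first. Shares carry 95% Wilson intervals, which cover counting error only. Members, lists and rules were chosen with earlier results of these data known. Named are the 12 best sites in protein-coding genes away from large gaps, the 8 genes with most sites within 5 kb of the 5′ end, the 6 with most in the body, the 3 best noncoding sites, the 3 best sites anywhere on chromosomes 1 to 22 and, per list, up to 4 leading called members. Other members are named after their values were seen. Alternatives were stricter q, other overlaps and distances, equal list lengths, omitted regions or libraries, and other gene windows. The sequence of 1 named site is not reported here.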

Additional observations from a re-analysis of the deposited data

Results flagged for a closer look

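Replicated sites were also present outside chromosomes 1 to 22, in data the comparisons above do not use, and no control peaks were analysed beside them. There were 180, of which 25 lay on chromosome X, 5 on chromosome Y and 1 over the mitochondrial genome, and the rest lay on other sequences of the assembly. The mitochondrial site spanned all 16571 bp, with summits of 232309 (reverse) and 453017 (forward) in replicate 1 and 66845 and 139247 in replicate 2. The next in rank, on an unplaced scaffold, ran from base 117516 to 145850 with 1400 and 7456, and 794 and 4808. The best site on chromosome X, at chrX:61719255-61719985, had 525 and 339, and 149 and 178.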

How the results depend on the processing

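No paired analysis was possible because the description holds a single condition with 2 libraries and no test between groups. At a −log10 q of at least 3 and at least 10, 1625 and 241 replicated sites were left, with 78.5% and 59.3% in genes, 41.6% and 40.7% within 5 kb of a 5′ end, 37.5% and 36.9% 0 to 5 kb downstream, and 701 and 115 genes called. The reverse peak came first in 72.7% at the stricter threshold. Requiring a larger overlap between replicates, at least 0.5 of the shorter site, gave 32.1% near and 27.7% downstream of 5′ ends. Overlapping peaks only gave 2347 sites, 33.9% and 29.3%. Cutting all lists to 523760 peaks, the length of the shortest, gave 33.3% and 29.0%. Leaving out sites beside large gaps gave 78.4% in genes, 32.2% and 27.5%, and leaving out bins of raised peak number gave 32.5% and 27.8%. With protein-coding genes only 62.4% lay in genes, and with any overlap 76.8%. Windows of 1 and 10 kb gave 6.97% and 39.0% near a 5′ end, and 1 kb gave 302 genes. With the 5′ ends of gene records, an alternative chosen after seeing the data, 27.6% were near and 21.1% downstream.

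Taking all sites of a single library in place of replicated ones (each replicate left out in turn) gave 54016 to 101303 sites, 66.5 to 68.4% in genes, 10.3 to 11.6% near and 7.30 to 7.76% downstream of 5′ ends, 4762 to 8723 genes, and the reverse peak first in 46.7 to 49.0%. That share thus fell below an even split in each library alone, where no overlap between libraries enters. The cause of these shifts was not tested. Depth limits the lists, since weak sites of the shallower replicate 2 can be missed, and 2 libraries give no interval for spread between cultures.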
